A study of Mus musculus with 14 samples.

Results

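The genes described here are a part of the lysosomal genes, read in sorted cells. They are 41 genes, chosen by name, for the proton pump, soluble enzymes and their cofactors, proteins of the limiting membrane and 1 transcription factor. All 41 were found among the 14084 genes of the count table, and all 41 passed the filter on low counts. By role they were 16 subunits and accessory proteins of the vacuolar ATPase (V-ATPase), 13 hydrolases, 3 soluble cofactors and carriers, 8 membrane proteins and Tfeb. Cathepsins were not among them. Expression was followed in sorted cells labelled microglia, the resident macrophages of the brain. The groups were sham surgery and 6 times after an ischemic stroke, and markers of other cell types are given below.

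The lysosome is the organelle in which a macrophage breaks down what it has engulfed. The V-ATPase pumps protons into it, with a V1 sector that splits ATP in the cytosol and a V0 sector that carries protons through the membrane, and the acid so made is what the hydrolases need to work. The membrane proteins shield the bilayer, export cholesterol and release calcium. Tfeb is known to bind a palindromic element in the promoters of many of these genes. After a stroke, microglia clear dead cells and myelin rich in lipid and cholesterol.

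C57BL/6 mice of 8 to 10 weeks were used in every group, and cells were taken from the cerebral cortex by fluorescence-activated sorting. In the stroke groups the distal middle cerebral artery was tied off for good and both common carotid arteries were closed for 7 min, and cells were collected on days 1, 3, 7, 21, 60 and 90. Sham mice had a lesion of the skull surface alone. Each of the 7 groups had 2 libraries of gene counts, and the sources used here give neither the gate of the sort, the day on which sham mice were sampled, nor the number of mice behind a library. No label places the libraries of a group in separate mice, so the p-values may reflect technical spread between samples alone.

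Total counts were 15254983 to 28758420 in the libraries numbered replicate 1 and 100625099 to 191692779 in those numbered replicate 2, which were 6.60 to 9.19 times as deep. The sham libraries stood apart from the rest. The summed level of 13 neutrophil markers (13 of 13 in the table) was 377.8 to 7979 CPM (counts scaled to the library's total) in the 12 stroke libraries, against 22307 and 33144 CPM in sham. The 12 microglia markers (12 of 12 in the table) summed to 2747 to 29164 CPM in stroke libraries, against 2682 and 1543 CPM in sham, where Tmem119, which defines microglia, was at 16.9 and 2.48 CPM. Its range in stroke libraries was 41.6 to 350.2 CPM. Erythroid markers (2 of 7 in the table) summed to 0 to 4.41 CPM in stroke libraries and to 197.9 and 206.3 CPM in sham. Monocyte markers (7 of 7) summed to 500.6 to 9579 CPM in stroke libraries and to 5478 and 11782 CPM in sham, and these ranges overlapped. Markers of border-associated macrophages (8 of 8) summed to 434.6 to 2571 CPM in stroke libraries and to 1449 and 694.4 CPM in sham, and Ms4a7 of that list was at 54.5 to 2591 CPM in stroke libraries, against 3.03 and 9.74 CPM in sham. In the mean of the stroke times against sham, 9 of 12 microglia markers were called higher and none lower, and 4 of the 8 markers of border-associated macrophages were called higher and 1 lower. Every comparison with sham below rests on these 2 libraries, all comparisons with sham share them, and the part of the other cell types in the results was not tested. In RNA of pooled cells, fewer cells of a type and less RNA per cell cannot be told apart.

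Averaged over the 6 stroke times, 6 of the 13 hydrolases and 5 of the 8 membrane proteins were higher than in sham, and 2 of the 16 proton pump genes were. Of the 41 members 14 rose and 1, Tfeb, fell, which is 34.1% and 2.44% of them, where 8.56% of the 13861 genes tested rose and 11.3% fell. Calls are those of edgeR's quasi-likelihood test with a threshold of 0.05 on the Benjamini-Hochberg adjusted p, taken over all genes tested. The median log2 fold change of the members was 0.84, beside 0.09 over all genes. The members that rose were 6 of the 13 hydrolases (Naglu, Gla, Gusb, Glb1, Tpp1 and Lipa), 5 of the 8 membrane proteins (Cd63, Cd68, Npc1, Lamp1 and Mcoln1), 1 of the 3 cofactors and carriers (Grn) and 2 of the 16 V-ATPase genes (Atp6v0d2 and Atp6v1c1). The median log2 fold change was 1.70 for hydrolases, 1.60 for membrane proteins, 1.26 for cofactors and carriers and 0.22 for V-ATPase genes. In 12 members all 12 stroke libraries lay above both sham libraries, and in 2, Atp6v1b2 and Tfeb, all 12 lay below, where 10.3% and 10.9% of all genes did so. With sham replicate 1 left out, 1 member was called in this comparison, and with sham replicate 2 left out 3 were. The lone sham library was then assumed to vary like the other groups.

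**Figure D1:**
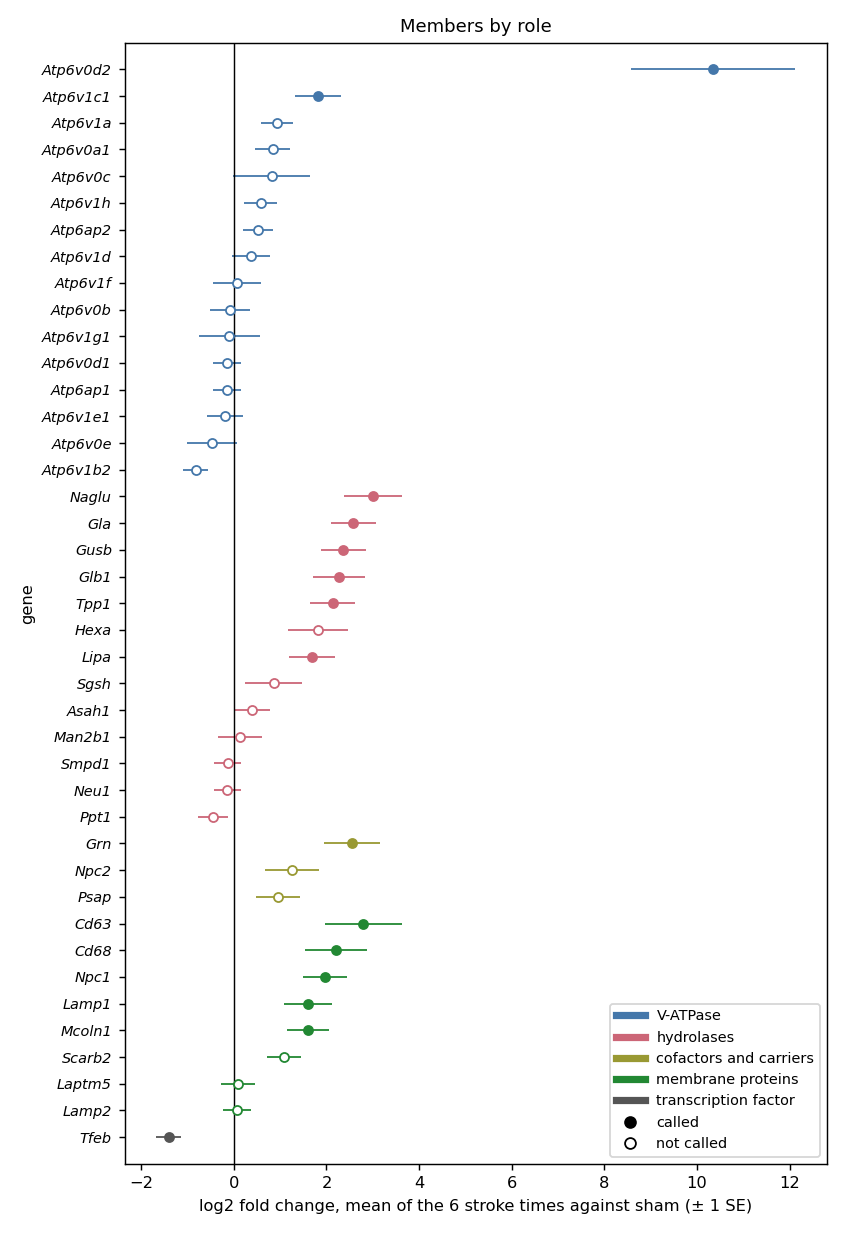
Log2 fold change of each of the 41 members, mean of the 6 stroke times against sham (x axis, with 1 standard error), grouped by role (colour), with filled points for called genes. Filled points right of 0 are seen in 6 of 13 hydrolases and 5 of 8 membrane proteins and in 2 of 16 V-ATPase genes, and Atp6v0d2 lies far to the right at 10.35.

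The promoters of several members that rose, and of some that were not called, share a short motif. Promoters of 300 bases (250 before to 50 after the start of the gene, RefSeq, build GRCm38.p6) were found for 34 of the 41 members, and those of Atp6v0d2, Atp6v1b2, Atp6v1c1, Atp6v1g1, Atp6v1h, Asah1 and Npc1 were not. Both strands were searched for the E-box CACGTG, which is its own reverse complement, and for TCACGTG (read as CACGTGA on the other strand), which contains it. The E-box was in 10 of 34 member promoters (29.4%) and in 7.15% of all 32851 promoters, or 9.48% of the 13579 that belong to genes of the count table. The same 10 held TCACGTG, which was in 3.77% of all promoters and in 5.55% of those of genes in the table. The longer palindrome known as the CLEAR element, which extends the E-box by 2 bases on each side, was in none of the 34 member promoters, in 0.326% of all promoters and in 0.626% of those of genes in the table. By role, TCACGTG was in 4 of 11 V-ATPase promoters, 4 of 12 hydrolase promoters, 2 of 7 membrane protein promoters and none of the 3 promoters of cofactors and carriers.

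The holders were Atp6v0b, Atp6v0d1, Atp6v0e, Atp6v1a, Gla, Glb1, Lamp1, Mcoln1, Naglu and Sgsh, of which 5 rose in the mean of the stroke times against sham, with a median log2 fold change of 1.26. Of the other 24 promoters' genes, 6 rose and 1 fell, with a median of 0.67. Over all genes tested, 8.56% rose and 11.3% fell. The holders that rose were hydrolases and membrane proteins. Those not called were Sgsh and the V-ATPase genes Atp6v0b, Atp6v0d1, Atp6v0e and Atp6v1a. Motif and role were thus not separated, and the difference between holders and other genes was not tested. Atp6v0d2, Atp6v1c1 and Npc1 also rose but had no promoter to search. A match describes letters in a window and is not a measured binding site. The promoters below are those of 2 membrane proteins and 2 hydrolases that rose and of 1 V0 subunit that was not called (Atp6v0b, log2 fold change -0.07). They are read 5′ to 3′ on the strand of the gene, and capitals mark each CACGTG with the T before it or the A after it. They show that the motif lies in promoters of called and of uncalled genes, with 4 copies of CACGTG in Lamp1, 2 in Mcoln1, 2 in Gla, 1 in Naglu and 2 in Atp6v0b. The places are chr8:13158911-13159210 (plus strand) for Lamp1, chr8:3500269-3500568 (plus) for Mcoln1, chrX:134600956-134601255 (minus) for Gla, chr11:101069844-101070143 (plus) for Naglu and chr4:117887280-117887579 (minus) for Atp6v0b.
Lamp1: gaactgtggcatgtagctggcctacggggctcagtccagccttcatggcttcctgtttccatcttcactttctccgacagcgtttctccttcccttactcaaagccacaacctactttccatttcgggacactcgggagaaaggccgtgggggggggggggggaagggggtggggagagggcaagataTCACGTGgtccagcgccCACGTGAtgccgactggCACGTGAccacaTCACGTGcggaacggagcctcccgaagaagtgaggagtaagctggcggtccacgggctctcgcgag
Mcoln1: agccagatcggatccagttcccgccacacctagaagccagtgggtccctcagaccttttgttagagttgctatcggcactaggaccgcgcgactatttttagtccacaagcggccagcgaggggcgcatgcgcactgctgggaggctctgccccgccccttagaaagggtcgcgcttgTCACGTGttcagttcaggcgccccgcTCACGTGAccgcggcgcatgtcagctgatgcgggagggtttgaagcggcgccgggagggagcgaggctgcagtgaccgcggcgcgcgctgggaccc
Gla: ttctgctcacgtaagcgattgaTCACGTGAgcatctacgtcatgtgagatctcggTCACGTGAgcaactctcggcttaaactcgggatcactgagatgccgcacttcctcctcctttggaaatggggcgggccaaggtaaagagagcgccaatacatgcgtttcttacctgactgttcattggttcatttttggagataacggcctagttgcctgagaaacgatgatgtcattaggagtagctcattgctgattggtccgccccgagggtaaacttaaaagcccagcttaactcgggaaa
Naglu: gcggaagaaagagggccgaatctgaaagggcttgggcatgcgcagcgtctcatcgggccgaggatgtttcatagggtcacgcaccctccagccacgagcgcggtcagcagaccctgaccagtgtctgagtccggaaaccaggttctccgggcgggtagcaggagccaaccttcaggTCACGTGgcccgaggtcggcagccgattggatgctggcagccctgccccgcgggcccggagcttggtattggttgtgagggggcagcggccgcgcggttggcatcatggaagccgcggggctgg
Atp6v0b: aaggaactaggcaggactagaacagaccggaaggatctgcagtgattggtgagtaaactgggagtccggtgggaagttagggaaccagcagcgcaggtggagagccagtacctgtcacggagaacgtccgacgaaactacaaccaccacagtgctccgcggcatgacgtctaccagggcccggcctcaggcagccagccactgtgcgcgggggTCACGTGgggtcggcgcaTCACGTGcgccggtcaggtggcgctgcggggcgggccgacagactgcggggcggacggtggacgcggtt

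Among V-ATPase genes, 1 subunit stood out: Atp6v0d2, the d2 isoform of the V0 sector, known from osteoclasts and macrophages, which was all but absent in sham and abundant late after stroke. Atp6v0d2 was at 0 and 0.0713 CPM in sham, 11.5 and 0.200 on day 1, 3.68 and 1.36 on day 3, 176 and 168 on day 7, 42.1 and 95.1 on day 21, 879 and 740.1 on day 60 and 976 and 775 on day 90. The levels were near 0 in sham and on days 1 and 3, higher on day 7, and highest on days 60 and 90, and no stroke library overlapped sham. In raw counts sham had 0 and 6, and 0 counts in sham replicate 1 allows up to 0.197 CPM. The gene was called higher than sham on days 1, 7, 21, 60 and 90, with log2 fold changes between 6.74 ± 1.64 (SE, edgeR adjusted p = 0.0428) on day 1 and 13.99 ± 2.03 (adjusted p = 0.00467) on day 90. The day 1 call was kept in 8 of 20 other settings and was lost with limma-voom and with any 1 of 11 single libraries left out, among them both sham libraries and day 1 replicate 1. On day 3 it was 5.53 ± 1.59 and missed the threshold (adjusted p = 0.0557). These folds rest on 6 counts in sham, so that their size is poorly fixed: without sham replicate 2 the day 1 value was 11.85, and without day 1 replicate 1 it was 1.91. The day 1 libraries themselves differed, with 202 counts in replicate 1 and 29 in the deeper replicate 2.

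Its broadly expressed sister, Atp6v0d1, the d1 isoform of the same V0 subunit, did not follow. Atp6v0d1 had 86.0 and 111 CPM in sham, 146 and 91.2 on day 1, 152 and 115 on day 3, 127 and 103 on day 7, 82.9 and 64.3 on day 21, 53.7 and 72.5 on day 60 and 55.1 and 64.0 on day 90. The libraries of days 21, 60 and 90 lay below both sham libraries and those of day 3 above, but no time was called, and the mean of the stroke times differed from sham by -0.15 ± 0.30 on the log2 scale (adjusted p = 0.785). Counts were divided by the length of the merged exons (2716 bases for Atp6v0d2 and 1793 for Atp6v0d1, GENCODE M21) to compare the isoforms. Atp6v0d2 then made up 0% and 0.0422% of the d transcripts in sham, 4.93% and 0.145% on day 1, 1.58% and 0.776% on day 3, 47.8% and 51.7% on day 7, 25.1% and 49.4% on day 21, 91.5% and 87.1% on day 60 and 92.1% and 88.9% on day 90. The d2 isoform was thus the smaller part of the d transcripts through day 3, about level with d1 on day 7, and the larger part in all 4 libraries of days 60 and 90. Both replicate numbers showed this order apart from day 21, where replicate 1 had a lower share than replicate 2.

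**Figure D2:**
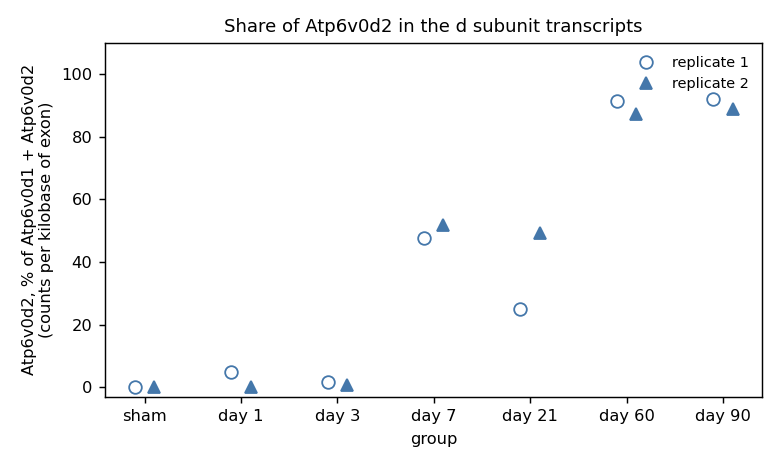
Share of Atp6v0d2 in the summed Atp6v0d1 and Atp6v0d2 counts per kilobase of exon (y axis, percent) in each of the 14 libraries (points), by group (x axis). The share is at most 4.93% in sham and on days 1 and 3, and 87.1% to 92.1% on days 60 and 90.

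The other V-ATPase gene that rose was Atp6v1c1, the widely expressed C1 subunit of V1. The level of Atp6v1c1 was 65.5 and 148 CPM in sham, 470.1 and 269 on day 1, 409 and 364 on day 3, 374 and 466 on day 7, 127 and 353 on day 21, 402 and 623 on day 60 and 325 and 435 on day 90. All stroke libraries but 1, day 21 replicate 1, lay above both sham libraries. It was called on day 7 (log2 fold change 1.98 ± 0.59, adjusted p = 0.047), on day 60 (2.26 ± 0.59, adjusted p = 0.0393) and in the mean of the stroke times (1.82 ± 0.50, adjusted p = 0.0253).

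The remaining 14 V-ATPase genes were called at no time against sham. They include the A subunit Atp6v1a and the B subunit Atp6v1b2, which together split ATP, the proteolipid Atp6v0c, which forms the proton-carrying ring with Atp6v0b, and the accessory proteins Atp6ap1 and Atp6ap2. Their mean log2 fold changes over the stroke times ran between -0.82 for Atp6v1b2 and 0.93 for Atp6v1a. Atp6v1b2 was at 277.0 to 566.0 CPM in the 12 stroke libraries (median 377.3 CPM), against 654.1 and 723.6 CPM in sham, and although these did not overlap, the mean difference missed the threshold (-0.82 ± 0.27, adjusted p = 0.0528). It was named after its values were seen. Small subunits split by replicate number: Atp6v1g1 had 760.3 and 633.4 CPM in replicate 1 of days 1 and 3, 107.4 and 114.1 CPM in replicate 2, and 252.3 and 275.5 CPM in sham. Atp6v1f and Atp6v0e split the same way on those days, with replicate 1 above both sham libraries and replicate 2 below the higher of them. The ring subunit Atp6v0c split the other way, with replicate 2 above replicate 1 in all 7 groups. It was at 111.4 and 323.7 CPM in replicates 1 and 2 of sham and at 195.4 and 1029 CPM in those of day 60. Up to 27.1% of the 50-base words of Atp6v0c, 19.2% of those of Atp6v1g1 and 11.2% of those of Atp6v1f occur in pseudogenes or other genes, so part of their reads may be divided.

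The hydrolases had 6 of 13 members called in the mean of the stroke times (46.2%), a larger number but a smaller share than the 5 of 8 membrane proteins (62.5%). Naglu was at 26.6 and 23.6 CPM in sham, 229 and 51.0 on day 1, 153 and 335 on day 3, 483 and 353 on day 7, 131 and 305 on day 21, 139 and 127 on day 60 and 171 and 156 on day 90. Gla had 22.1 and 21.7 CPM in sham, 295 and 119 on day 1, 272 and 113 on day 3, 163 and 158 on day 7, 41.7 and 54.4 on day 21, 157 and 196 on day 60 and 101 and 88.0 on day 90. The level of Gusb was 107 and 129 CPM in sham, 704 and 229 on day 1, 571 and 747 on day 3, 1093 and 1355 on day 7, 302 and 485 on day 21, 544 and 553 on day 60 and 594 and 637 on day 90. Every stroke library lay above both sham libraries in these 3 genes. Naglu, which breaks down heparan sulfate, and Gusb, the beta-glucuronidase that does the same for several glycosaminoglycans, were highest on day 7, and Gla, the alpha-galactosidase that cleaves the glycolipid Gb3, was highest on average on day 1, where its libraries differed. In the mean of the stroke times the log2 fold changes were 3.01 ± 0.63 for Naglu (adjusted p = 0.00689), 2.58 ± 0.48 for Gla (0.00392) and 2.36 ± 0.48 for Gusb (0.00617).

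Glb1 was at 22.7 and 29.7 CPM in sham, 109 and 51.2 on day 1, 88.3 and 141 on day 3, 203 and 337 on day 7, 70.4 and 283 on day 21, 74.9 and 111 on day 60 and 90.9 and 113 on day 90. Tpp1 had 103 and 121 CPM in sham, 519.8 and 243 on day 1, 397 and 508 on day 3, 697 and 624 on day 7, 244 and 713 on day 21, 527 and 475 on day 60 and 526 and 517 on day 90. Glb1, the beta-galactosidase that acts on ganglioside GM1, and Tpp1, a tripeptidyl peptidase, also lay above both sham libraries in every stroke library. Their mean log2 fold changes were 2.27 ± 0.57 (adjusted p = 0.0158) for Glb1 and 2.13 ± 0.48 (adjusted p = 0.0101) for Tpp1. On day 21 the calls rested on 1 library: without day 21 replicate 2 the log2 fold change was 1.43 for Glb1, with the full value at 2.75, and 1.12 for Tpp1, with the full value at 2.09. Lipa, the acid lipase that frees cholesterol from its esters, rose on days 7, 60 and 90 (log2 fold changes 2.0 ± 0.59, 2.49 ± 0.60 and 2.53 ± 0.60) and was at 0.38 ± 0.57 on day 21, where it was not called (adjusted p = 0.716).

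Of the 7 other hydrolases none was called at any time. Hexa, the alpha chain of beta-hexosaminidase, was above both sham libraries in all 12 stroke libraries (648.4 to 3643 CPM, median 1716 CPM, against 370.0 and 634.1 CPM in sham), with a mean log2 fold change of 1.82 ± 0.65 that missed the threshold (adjusted p = 0.0679). Sgsh, the heparan N-sulfatase, averaged 0.87 ± 0.61 and Asah1, the acid ceramidase, 0.39 ± 0.39. The sphingomyelinase Smpd1, the sialidase Neu1, the mannosidase Man2b1 and the thioesterase Ppt1 had mean log2 fold changes between -0.45 (Ppt1) and 0.13 (Man2b1). Among enzymes of heparan sulfate breakdown, Naglu was called higher at 4 of 6 times and Sgsh at none, and the difference between these genes was not tested. Of the exon bases of Sgsh 21.6% and of Hexa 12.8% lie in exons of another gene, where reads cannot be told apart without a stated strand setting.

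**Figure D3:**
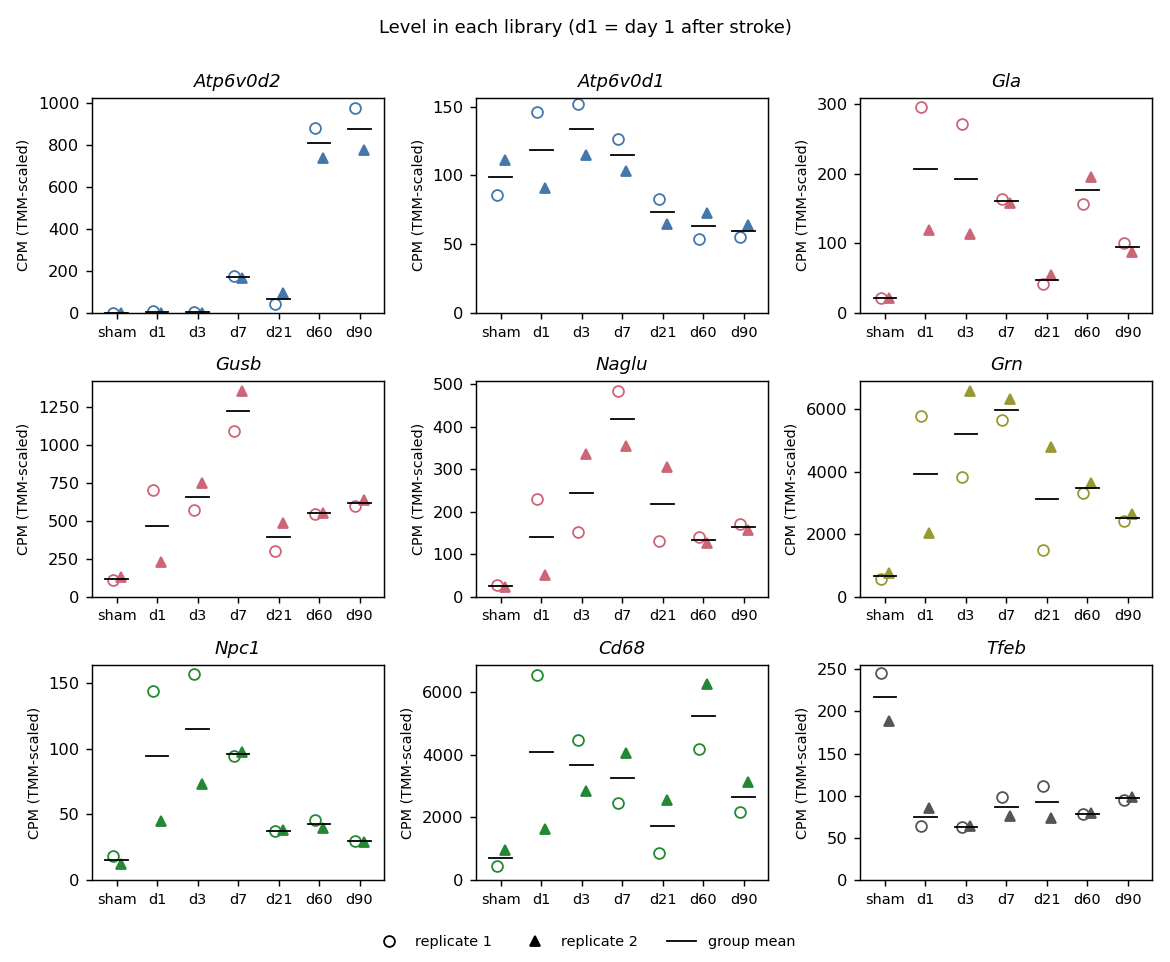
Level of 9 members in each of the 14 libraries (points, TMM-scaled CPM on a linear axis from 0, with lines at group means), by group in order of time. Gla, Gusb, Naglu, Grn and Npc1 lie above both sham libraries and Tfeb below them in all 12 stroke libraries, and Atp6v0d2 but not Atp6v0d1 is highest on days 60 and 90.

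Of the 3 cofactors and carriers, Grn, the precursor of the granulins, a lysosomal glycoprotein whose loss causes lysosomal storage, rose. The level of Grn was 566 and 759 CPM in sham, 5787 and 2029 on day 1, 3842 and 6585 on day 3, 5636 and 6311 on day 7, 1498 and 4774 on day 21, 3322 and 3622 on day 60 and 2407 and 2641 on day 90. Every stroke library exceeded both sham libraries. It was called on day 3 (log2 fold change 2.98 ± 0.69, adjusted p = 0.0234), on day 7 (3.17 ± 0.70, adjusted p = 0.0153) and in the mean of the stroke times (2.54 ± 0.60, adjusted p = 0.0124). Psap, the precursor of the saposins that help hydrolases reach sphingolipids, was abundant in every library. Psap was at 4076 and 3794 CPM in sham, 7806 and 4755 on day 1, 4441 and 6078 on day 3, 10125 and 8511 on day 7, 4037 and 7827 on day 21, 8247 and 14246 on day 60 and 6497 and 12348 on day 90. Its levels were above both sham libraries in 11 of 12 stroke libraries, yet the mean log2 fold change of 0.95 ± 0.47 was not called (adjusted p = 0.178). Npc2, which hands cholesterol to Npc1, was at 1.26 ± 0.59 and not called (adjusted p = 0.156), with 250.1 to 1348 CPM in stroke libraries (median 613.0 CPM) and 302.1 and 293.9 CPM in sham.

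Among membrane proteins the times of the calls against sham varied, and neither the joint test of the stroke times nor days 60 and 90 against days 1 and 3 called any of the 8. Npc1 had 18.1 and 12.7 CPM in sham, 144 and 44.8 on day 1, 156 and 73.4 on day 3, 94.1 and 97.2 on day 7, 37.2 and 37.9 on day 21, 45.8 and 39.7 on day 60 and 30.0 and 29.0 on day 90. Npc1, which exports cholesterol from the lysosome, was highest on average on day 3 and nearer to sham from day 21, without any overlap with sham. It was called on day 1 (log2 fold change 2.62 ± 0.56, adjusted p = 0.0236), day 3 (2.90 ± 0.57, adjusted p = 0.0118) and day 7 (2.64 ± 0.56, adjusted p = 0.0139) and at none of the later times, where it was 0.94 to 1.47. Set directly against days 1 and 3, days 60 and 90 differed by -1.55 ± 0.38 and missed the threshold (adjusted p = 0.0557). Without day 1 replicate 1 the day 1 value was 1.55.

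The level of Cd63 was 39.5 and 86.3 CPM in sham, 988 and 133 on day 1, 969.6 and 299 on day 3, 404 and 623 on day 7, 109.9 and 379 on day 21, 587 and 616 on day 60 and 307 and 217 on day 90. Cd68 was at 443 and 957 CPM in sham, 6545 and 1625 on day 1, 4470.2 and 2852 on day 3, 2475 and 4035 on day 7, 871 and 2571 on day 21, 4189 and 6259.7 on day 60 and 2177 and 3118 on day 90. Cd63, a tetraspanin of late endosomes, and Cd68, a heavily glycosylated macrophage sialomucin, were high on days 1 and 3 in replicate 1 and on day 60 in both libraries. Day 7 replicate 2 was also high, at 623 CPM for Cd63 and 4035 CPM for Cd68. For Cd63 no stroke library overlapped sham, and for Cd68 day 21 replicate 1 lay between the sham libraries. Cd63 was called on day 3 (log2 fold change 3.33 ± 0.94, adjusted p = 0.05 as rounded, just inside the threshold) and Cd68 on day 60 (2.90 ± 0.79, adjusted p = 0.0436). The day 3 call of Cd63 was kept in 9 of 20 other settings and was lost with the replicate number as a block and with any 1 of 10 single libraries left out. Their means over the stroke times were 2.80 ± 0.83 (adjusted p = 0.0332) for Cd63 and 2.21 ± 0.67 (adjusted p = 0.037) for Cd68. A pseudogene of Cd63 holds 24.6% of its 50-base words.

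Lamp1 had 962 and 970.0 CPM in sham, 4341 and 1299.9 on day 1, 3345 and 2314 on day 3, 3249.6 and 4210.0 on day 7, 1533 and 3231 on day 21, 3485 and 3413 on day 60 and 2579 and 2563 on day 90. The level of Mcoln1 was 22.8 and 29.3 CPM in sham, 90.0 and 62.0 on day 1, 77.9 and 89.8 on day 3, 79.2 and 89.0 on day 7, 36.9 and 135 on day 21, 69.1 and 92.1 on day 60 and 60.6 and 68.3 on day 90. Lamp1, an abundant glycoprotein of the limiting membrane, and Mcoln1, the calcium channel TRPML1, were above both sham libraries at all times. Neither was called at any single time, and both were called in the mean of the stroke times, at 1.60 ± 0.52 for Lamp1 (adjusted p = 0.0479) and 1.60 ± 0.46 for Mcoln1 (adjusted p = 0.0288). Scarb2, the receptor that carries glucocerebrosidase to lysosomes, was called on day 7 alone (1.80 ± 0.46, adjusted p = 0.0264). Lamp2, which serves chaperone-mediated autophagy, and Laptm5, a membrane protein of blood cells, averaged 0.07 ± 0.30 and 0.09 ± 0.36 on the log2 scale and were called at no time. Lamp1 and Lamp2, often used as a pair of lysosome markers, thus gave different calls, and their difference was not tested.

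Tfeb, the transcription factor known to drive many of the other members, was lower after stroke. Tfeb was at 246 and 188 CPM in sham, 64.7 and 86.0 on day 1, 62.9 and 63.8 on day 3, 98.5 and 76.1 on day 7, 112 and 73.6 on day 21, 78.9 and 79.1 on day 60 and 95.5 and 99.2 on day 90. All 12 stroke libraries were below both sham libraries. It fell by 1.53 ± 0.39 on the log2 scale on day 1 (adjusted p = 0.0471), by 1.78 ± 0.39 on day 3 (adjusted p = 0.0193), by 1.31 ± 0.39 on day 7 (adjusted p = 0.0448) and by 1.46 ± 0.39 on day 60 (adjusted p = 0.0412), and by 1.41 ± 0.26 in the mean of the stroke times (adjusted p = 0.0038). Days 21 and 90, at -1.23 and -1.16, missed the threshold. With upper-quartile scaling the calls of days 1, 7 and 60 were lost, at -1.47, -1.17 and -1.36. The direction held under both scalings. Counts of RNA do not show where the Tfeb protein lies in the cell, which is known to set its activity.

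By time, day 7 had the highest number of calls with edgeR, 12 members, where 12.6% of all genes were called. With DESeq2 days 7 and 60 had 18 members each, where 22.8% and 19.1% of all genes were called. Members called higher and lower were 3 and 1 on day 1 (3.18% and 1.37% of all genes tested), 7 and 1 on day 3 (5.20% and 3.07% of all genes), 11 and 1 on day 7 (7.00% and 5.63%), 4 and 0 on day 21 (5.0% and 1.44%), 7 and 1 on day 60 (4.96% and 2.89%) and 6 and 0 on day 90 (5.12% and 2.73%). As shares of the 41 members, the higher calls were 7.32%, 17.1%, 26.8%, 9.76%, 17.1% and 14.6% in the same order. The median log2 fold change of the members was 0.88, 0.97, 1.00, 0.36, 0.93 and 0.67 at these times, beside medians over all genes of 0.04 to 0.15. In all, 13 members rose at 1 time or more, Tfeb fell, and 27 were called at no single time. With either sham library left out, no single time had more than 2 members called.

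The median log2 fold change of the hydrolases was above that of the V-ATPase genes at each of the 6 times, and that gap itself was not tested. Hydrolase medians were 1.29, 1.30, 2.0, 0.92, 1.83 and 1.88 on days 1, 3, 7, 21, 60 and 90, with 1, 4, 6, 3, 4 and 5 of 13 genes called higher. Membrane protein medians were 1.54, 1.63, 1.88, 1.29, 1.55 and 1.12, with 1, 2, 2, 0, 1 and 0 of 8 called. V-ATPase medians were 0.61, 0.51, 0.29, -0.43, 0.78 and -0.14, with 1, 0, 2, 1, 2 and 1 of 16 called. The group with the highest mean level was day 7 for 6 of the 13 hydrolases and for none of the 16 V-ATPase genes, 6 of which peaked on day 60. The day 21 libraries were the least alike of any group, with a correlation of log2 CPM across genes of 0.824, where the other groups had 0.885 to 0.942 and genes are not independent replicates.

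**Figure D4:**
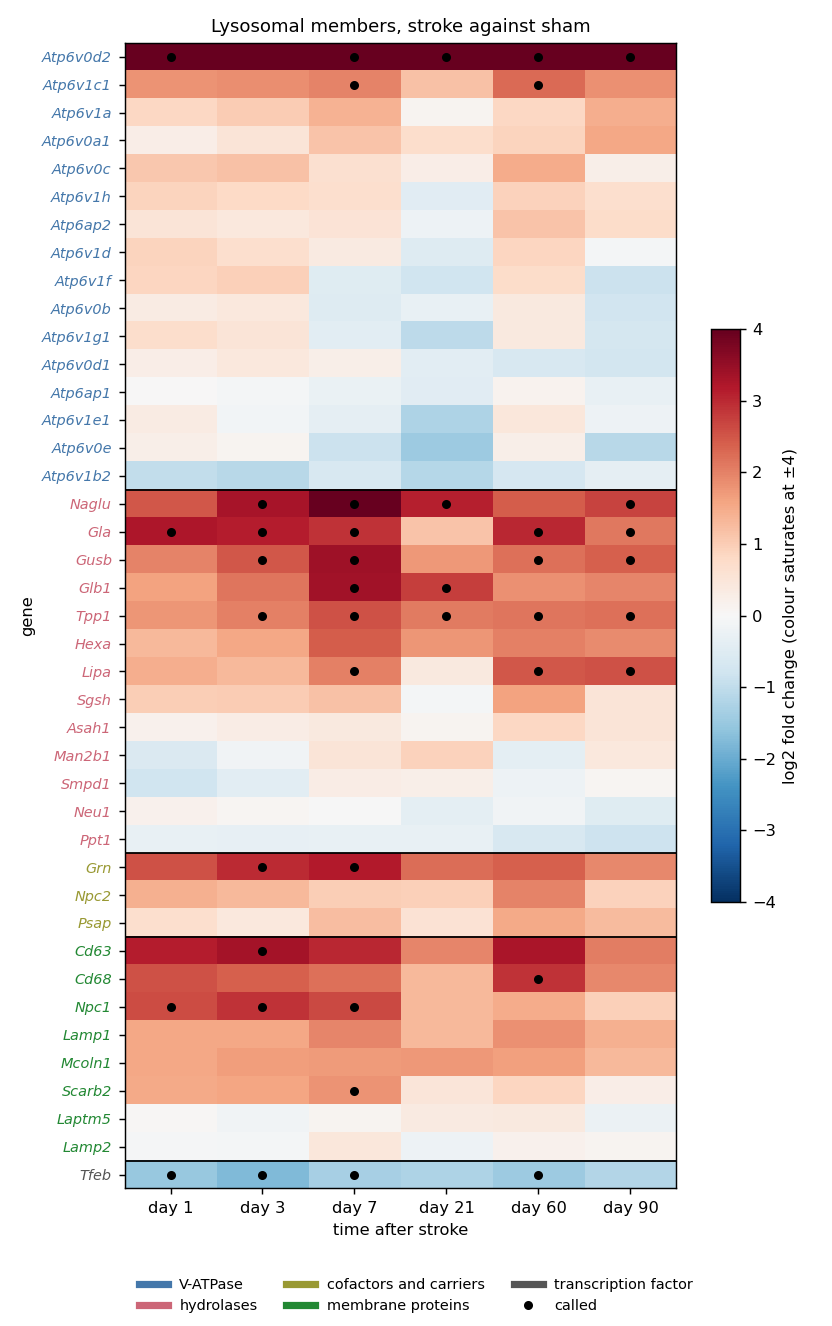
Log2 fold change of the 41 members (rows, by role) at each time after stroke against sham (columns), with dots on called genes and colours cut off at 4 in either direction. Hydrolases and membrane proteins hold blocks of higher genes at all times, most V-ATPase genes other than Atp6v0d2 are pale, and Tfeb is lower throughout.

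Summed over its members, each class took a larger part of all counts in most stroke libraries. The hydrolases took 0.307% to 0.904% of counts in stroke libraries, against 0.296% and 0.278% in sham, and the membrane proteins 0.577% to 1.40%, against 0.530% and 0.402% in sham. The cofactors and carriers took 0.704% to 1.83%, against 0.535% and 0.405% in sham. For these 3 classes all 12 stroke libraries were above both sham libraries. The V-ATPase genes took 0.350% to 0.650%, against 0.368% and 0.419% in sham, and these ranges overlapped on day 21.

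The balance between enzymes and pump was read as the ratio of summed hydrolase to summed V-ATPase counts within a library. It was 0.806 and 0.663 in sham, 0.999 and 0.714 on day 1, 0.816 and 1.46 on day 3, 1.69 and 2.11 on day 7, 1.29 and 2.38 on day 21, 0.979 and 0.970 on day 60 and 1.20 and 1.42 on day 90. In 11 of 12 stroke libraries, all but day 1 replicate 2, the ratio was above both sham libraries. It was highest in day 21 replicate 2 and in both libraries of day 7. Day 21 replicate 1, at 1.29, was below day 3 replicate 2 (1.46) and day 90 replicate 2 (1.42). For membrane proteins over V-ATPase the ratio was 1.34 to 2.76 in stroke libraries, median 2.06, against 1.44 and 0.960 in sham, with day 1 replicate 2 overlapping. Since gene lengths differ, the ratios compare libraries and not the amounts of the classes. Because each ratio is taken within a library, it does not depend on the library's scaling. A sum weighs abundant genes most. To the V-ATPase sum, Atp6v0d2 gave 22993 and 91784 counts on day 60, 35460 and 154695 on day 90, and 0 and 6 in sham. To the hydrolase sum, Hexa and Man2b1, neither of them called, gave 440144 and 152116 counts in day 7 replicate 2. Ratios without these genes were not computed.

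**Figure D5:**
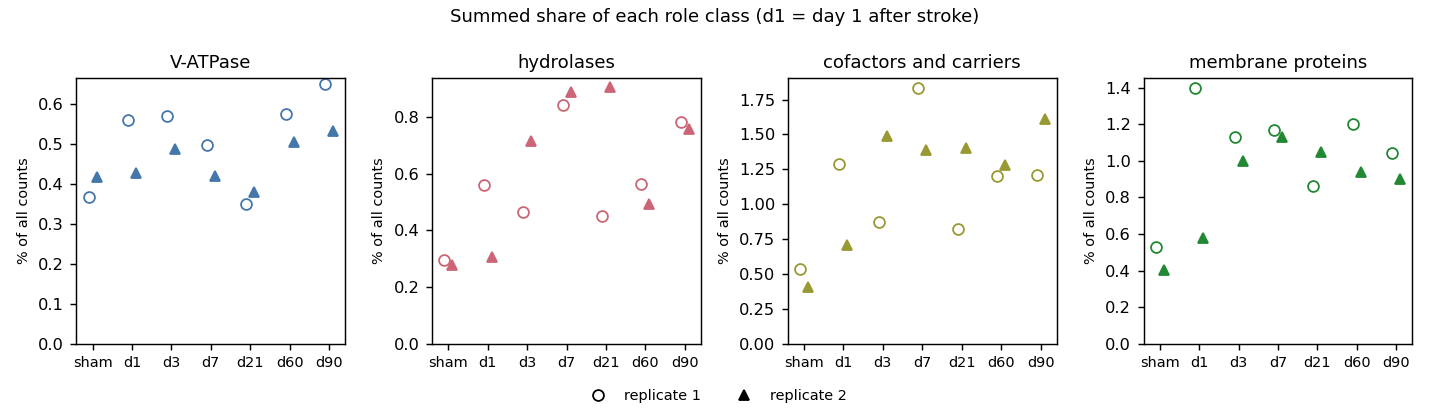
Summed share of all counts (y axes, percent, from 0) taken by the V-ATPase genes, hydrolases, cofactors and carriers, and membrane proteins in each of the 14 libraries (points), by group. The last 3 classes lie above both sham libraries in all 12 stroke libraries, and the V-ATPase sum overlaps sham on day 21.

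Between the stroke times, which needs no sham library, few members differed. A joint test for any difference among the 6 times called none of the 41 members, where 0.866% of all genes were called, and Atp6v0d2 was the nearest to it (adjusted p = 0.0548). At an unadjusted p under 0.05 the same edgeR test held 7 members, where it held 1660 of all 13861 genes. After adjustment DESeq2 called 5 members and 9.21% of all genes, and limma-voom 1 member and 1.31% of all genes. With days 60 and 90 set against days 1 and 3, 1 member was called higher and none lower, where 1.77% and 0.844% of all genes were. It was Atp6v0d2, at 7.80 ± 1.11 on the log2 scale (adjusted p = 0.00524), with 740.1 to 976.4 CPM on days 60 and 90 and 0.200 to 11.5 CPM on days 1 and 3. The call was kept in all 20 other settings tried. Markers of lymphocytes moved with it: 5 of 7 B cell markers and 7 of 10 T and NK cell markers in the table were called higher in the same comparison. Their sums were 219.4 to 450.8 and 82.5 to 175.9 CPM on days 60 and 90, against 9.89 to 67.7 and 5.02 to 10.1 CPM on days 1 and 3. None of the 12 microglia markers was called there, and of the 8 markers of border-associated macrophages, the macrophages of the meninges and vessel walls, 1 was called higher and 1 lower. Of these 8 markers 2 had a log2 fold change above 0, and the median of the 8 was -0.81. Mrc1 of that list was at 100.1 to 301.0 CPM on days 60 and 90, against 45.1 to 59.5 CPM on days 1 and 3. Pf4 of the same list went the other way, at 23.3 to 94.7 CPM against 117.9 to 1046 CPM. Of 7 monocyte markers 0 were above 0 and 1 was called lower, with a median of -1.62. All 6 dendritic cell markers were above 0 (median 0.66) and 0 of 6 endothelial markers were (median -1.81), with none called in either list. Of 13 neutrophil markers 5 were above 0 and none was called. The part of other cells in the Atp6v0d2 result was not tested. Atp6v0d1 differed by -1.04 ± 0.29 and was not called (adjusted p = 0.0849).

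The replicate numbers also mark depth, and the members were compared with sham within each number. The members' median log2 difference was 1.59 in replicate 1 and 0.17 in replicate 2 on day 1, 1.48 and 0.68 on day 3, 1.04 and 0.88 on day 7, 0.09 and 0.56 on day 21, 1.18 and 0.94 on day 60 and 0.73 and 0.62 on day 90. The difference had the same sign in both numbers for 25 members on day 1, 29 on day 3, 40 on day 7, 32 on day 21, 38 on day 60 and 38 on day 90. The day 1 level of the members was therefore the least alike between libraries. Both libraries lay above both sham libraries in 20, 24, 25, 15, 27 and 25 members at the 6 times, where 22.2%, 28.9%, 32.1%, 27.5%, 33.9% and 36.4% of all genes did. They lay below both sham libraries in 4, 4, 6, 11, 5 and 9 members, where 23.2%, 24.6%, 27.6%, 24.1%, 27.1% and 27.2% of all genes did.

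Lysosomal genes outside the 41 were read from lists written by role. Of 24 other hydrolases 15 rose in the mean of the stroke times and none fell, and 7, 11, 15, 10, 8 and 9 rose on days 1, 3, 7, 21, 60 and 90. Lgmn, the asparaginyl endopeptidase legumain, was at 604.2 to 4563 CPM in stroke libraries and at 86.3 and 71.8 CPM in sham, and rose by 4.75 ± 0.78 on the log2 scale (adjusted p = 0.00196). Acp2, the lysosomal acid phosphatase, was at 78.2 to 179.3 CPM, against 24.2 and 19.2 CPM in sham, and rose at all 6 times (mean 2.67 ± 0.41, adjusted p = 0.00141).

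Of 9 other V-ATPase genes 5 were in the table, and 1 of these (20.0%, beside 8.56% of all genes) rose. It was Tcirg1, the a3 isoform of V0 found in osteoclasts and macrophages, at 179.1 to 443.0 CPM in stroke libraries and 102.6 and 106.0 CPM in sham (mean 1.48 ± 0.41, adjusted p = 0.0252). Of 16 other membrane proteins 5 rose (31.2%) and 1 fell (6.25%), beside 8.56% and 11.3% of all genes. Mcoln2, a channel related to Mcoln1, was at 2.02 to 39.2 CPM, against 0.606 and 0.570 CPM in sham (mean 4.50 ± 0.84, adjusted p = 0.00417). Hgsnat, the membrane acetyltransferase of heparan sulfate breakdown, was the one that fell, at 53.4 to 140.3 CPM in stroke libraries against 439.7 and 583.0 CPM in sham, by 2.63 ± 0.32 (adjusted p = 5e-04) and at all 6 times. It acts between Sgsh and Naglu on the same polymer, so that genes of 1 pathway differed in sign. Of 9 other cofactors and sorting factors 1 rose (11.1%) and none fell. Of 12 nutrient sensing genes and relatives of Tfeb 1 rose (8.33%) and none fell. Both shares that rose were close to the 8.56% of all genes. The relatives Tfe3, Tfec and Mitf were not called. The named genes of these lists were chosen after their values were seen.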

How the data were processed

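Whole-number counts per gene were deposited by the authors, both as 1 joint table and as separate files, which held the same 14084 values for each of the 14 libraries. The submitters' processing notes name the mm9 build, HTSeq 0.6.1 and Bowtie2 2.3.4.2. They give no annotation and no strand setting. Sample titles gave each library its group and replicate number.

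The counts were fitted in R 4.3.3 with edgeR 4.0.16: a filter by group kept 13861 genes and dropped 223, TMM factors scaled the libraries, and the 14 libraries entered 1 robust quasi-likelihood model with group means (7 residual degrees of freedom, common biological coefficient of variation 0.639). Each of the 6 times and their mean were tested against sham, days 60 and 90 against days 1 and 3, and the 6 times jointly. Calls used a Benjamini-Hochberg adjusted p under 0.05 and no limit on fold. Standard errors are the log2 fold change over the square root of F. CPM of genes are TMM-scaled, class sums are not, and log2 CPM used a prior count of 2. The steps were tested on simulated data. A floor of 3 counts was used for a count of 0, and floors cover counting error only.

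Per-library values are given for up to 5 called members of each role with the largest mean change, members called lower at any time or called between late and early times, and Atp6v0d1, Atp6v0d2, Tfeb, Mcoln1, Lamp1, Grn and Psap. The members, lists and rule were chosen with earlier results of these data known. Alternatives were upper-quartile factors, DESeq2 1.42.0, limma-voom (limma 3.58.1), no filter, the replicate number as a block, day 21 left out and each library left out. Copies and exon overlaps were read from GENCODE M21 and promoters from RefSeq, both of build GRCm38, and no coordinate was converted.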

Additional observations from a re-analysis of the deposited data

Results flagged for a closer look

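Atp6v0d2 differed between late and early times after stroke, by 7.80 ± 1.11 on the log2 scale for days 60 and 90 against days 1 and 3 (edgeR adjusted p = 0.00524), as a direct test of that difference showed. The level was higher in all 4 libraries of days 60 and 90 than in the 4 libraries of days 1 and 3. Lymphocyte markers were called higher and 1 of 7 monocyte markers lower in the same comparison, and the part of other cells was not tested.

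Rragd, a Rag GTPase that brings mTORC1 to the lysosome and is not among the 41 genes, was the other lysosomal gene that the same direct test called, at 2.61 ± 0.49 (edgeR adjusted p = 0.0148). It was at 8.15 and 7.45 CPM on day 60 and 16.9 and 15.8 CPM on day 90, against 2.50 and 0.795 CPM on day 1 and 2.37 and 1.86 CPM on day 3. The call was kept in 14 of 20 other settings. It was chosen after its values were seen.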

How the results depend on the processing

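None of the 97 called values of members and of the named genes outside the 41 changed sign under the alternatives run. Numbers of members called, with the value as reported in parentheses, moved by over 1.5 times as follows. DESeq2 called 13 on day 1 (4), 15 on day 3 (8), 9 on day 21 (4), 18 on day 60 (8), 13 on day 90 (6), 4 between days 60 and 90 and days 1 and 3 (1) and 5 among the stroke times jointly (0), where it called 13.5%, 19.2%, 17.7%, 19.1%, 18.9%, 8.35% and 9.21% of all genes. Upper-quartile factors called 7 on day 21, and limma-voom 8 on day 21 and 1 in the joint test, beside 7.06%, 12.2% and 1.31% of all genes. Leaving day 21 out of the fit gave 10 on day 1, 13 on day 3, 13 on day 60, 11 on day 90 and 2 between late and early times, beside 7.98%, 13.2%, 12.8%, 13.1% and 4.93% of all genes. Upper-quartile scaling raised the median log2 fold change of all genes against sham by 0.07 on day 1 up to 0.22 on day 21. The filter on low counts changed no number of members called, and the causes of these shifts were not tested.

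The main fit held no replicate block, although the libraries split by replicate number. The correlation of same-numbered deviations was 0.071 to 0.677 over 21 pairs of groups (median 0.374), above 0 in every pair. The second principal component of log2 CPM, with 18% of the variance, separated the numbers in all 7 groups. It was 12.4 to 84.2 in replicate 1 and -109 to -27.9 in replicate 2. Whether depth or a batch lies behind this split cannot be told apart. With a replicate block 7 members were called on day 1, 11 on day 90, 2 between late and early times and 1 in the joint test, beside 8.62%, 14.5%, 4.41% and 1.33% of all genes, and the call of Cd63 on day 3 was lost at 3.26.

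Leaving out 1 library at a time gave 0 to 12 members called on day 1, 0 to 13 on day 3, 1 to 18 on day 7, 0 to 8 on day 21, 0 to 14 on day 60, 0 to 11 on day 90, 1 to 20 in the mean of the stroke times, 1 to 2 between late and early times and 0 to 1 in the joint test. The lowest numbers against sham were those without a sham library. Of the refits of the 97 called values with 1 library left out at a time, 945 kept the call and 413 lost it. Among members, the calls kept least often were those of Tfeb on day 1 (7 of 20 settings), Atp6v0d2 on day 1 (8 of 20), Tpp1 on day 21 (8 of 19), Cd63 on day 3 (9 of 20) and Lamp1 in the mean (9 of 19). The call of Atp6v0d2 on day 1 was lost with limma-voom, at 3.23. Depth limits the Atp6v0d2 folds, since sham held 6 counts in all.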
